A study of Rattus norvegicus with 7 samples.

Results

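Elastin (Eln, ENSRNOG00000001469), fibrillin 2 (Fbn2, ENSRNOG00000043219), smooth muscle myosin heavy chain (Myh11, ENSRNOG00000057880) and the alpha chain of collagen XIV (Col14a1, ENSRNOG00000026415) were examined in the fetal rat lung after intra-amniotic (IA) exposure to LPS. The genes were taken by identifier, and encode proteins of elastic fibres, smooth muscle and stroma. They are 4 of the 23918 genes in the table, of which 15750 had enough counts to be tested, and all 4 passed that filter on low counts.

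Pregnant Sprague-Dawley rats were given LPS of E. coli O55:B5, an endotoxin, or PBS into the amniotic cavity under ultrasound guidance on gestational day 18. Fetal lung tissue was taken 24 h later, and its polyA RNA was sequenced in bulk. The control group held 3 lungs of Sprague-Dawley fetuses exposed to PBS, and the IA LPS group held 4 lungs of fetuses of the same strain, age and time point exposed to 10 µg of LPS. The sample labels write the dose incompletely, and the value is that of the design text of the series. The labels do not tell whether the fetuses came from separate dams or litters, so p-values measure only the spread between these samples, which may be technical in part.

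Elastic fibres let the lung recoil after it is stretched. They form when elastin is laid down and crosslinked on a scaffold of microfibrils made of fibrillins, and fibrillin 2 is the fibrillin best known from developing tissue. In the developing lung elastin is made mainly by smooth muscle cells of airways and vessels and by myofibroblasts, which place it where new septa will rise. Myh11 encodes the contractile myosin of mature smooth muscle cells, and collagen XIV lies on the surface of collagen fibrils in the matrix around fibroblasts.

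Total counts per library ranged from 25031827 to 28336525, and a floor of 3 counts corresponded to between 0.105 and 0.124 CPM, the count relative to the library total, across the libraries. Levels are given as CPM scaled with TMM factors, and are compared between lungs. Gene lengths were not used here, so the most abundant gene of a list is only that with the highest CPM. Levels of different genes are not otherwise compared. The 4 genes were measured with at least 3665 counts in every library, so that counting error was at most 1.65% of a value. Floors and counting errors cover counting only.

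The library of IA LPS replicate 4 stood apart from the other 6. The first principal component of log2 CPM over the 7 libraries held 38.8% of the variance. On it the controls scored −31.9, −22.6 and −24.6, IA LPS replicates 1 to 3 scored −0.194, 10.9 and −3.28, and IA LPS replicate 4 scored 71.8. The study's own comparison did not use this library. The log2 fold changes of the 4 genes are therefore given over the 7 lungs and without it. Other results are given over the 7 lungs, and without that library only where this is stated. No library was a copy of another, with between 6.04 and 7.92% of genes at exactly the same unrounded estimated count in each pair. This was taken over genes with a count in at least 1 library, and genes at 0 in both libraries of a pair were included as equal.

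The tissue label was checked against markers of the lung epithelium. Of 12 such markers 4 had a gene name in the sources used here, and all 4 were well above the floor in every library. Their most abundant gene was Sftpc, which encodes surfactant protein C, at 478, 589 and 667 CPM in the control lungs and 729, 987, 829 and 1223 CPM in IA LPS replicates 1 to 4. The lung transcription factor Nkx2-1 lay between 311 and 389 CPM in every lung.

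Over the 7 lungs, Fbn2, Myh11 and Col14a1 had lower mean levels after IA LPS, and Eln had a slightly higher mean with a wide spread. A gene was called where the fold change was at least 1.5, the unadjusted p under 0.05 and the adjusted p under 0.1. By edgeR 0 of the 4 genes were called, where 1.90% of all 15750 genes were called in either direction. That share rested on single lungs, since the 220 induced and 80 suppressed genes fell to 1 and 1 without control replicate 1, 1 and 0 without control replicate 2, 2 and 2 without control replicate 3 and 1 and 0 without IA LPS replicate 2. Of the 4 genes 3 were lower with an unadjusted p under 0.05, where 15.8% of all genes tested had such a p in either direction, 6.72% in the direction of a lower level and 9.11% in that of a higher one. The 4 genes were chosen with earlier results of these data known, so counts among them set beside such shares are not a test. DESeq2 called 1 of the 4, Fbn2, where it called 2.69% of all genes as induced and 1.31% as suppressed, and limma-voom called 0, where it called 1.19% and 0.533%. Without IA LPS replicate 4, edgeR called 1 of the 4 genes, Myh11, where 3.30% of 15627 genes were called, 2.17% as induced and 1.13% as suppressed. In bulk RNA of a tissue, fewer cells of a type and less RNA per cell cannot be told apart.

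Eln, which encodes the soluble precursor of elastin, was at 3399.9, 2153 and 1808 CPM in control replicates 1, 2 and 3, and at 3063, 2302, 2030.3 and 4283 CPM in IA LPS replicates 1, 2, 3 and 4. The groups overlapped. IA LPS replicate 4 was the highest lung and control replicate 1 the next, while the lowest lung was a control. The mean was 2454 ± 837 CPM (SD, n = 3) in controls and 2919 ± 1009 CPM (SD, n = 4) after IA LPS. The log2 fold change was 0.25 ± 0.30 (SE), with a 95% interval from −0.43 to 0.94 and an adjusted p of 0.710 by edgeR. An exact two-sided permutation test over the 35 assignments of lungs gave p = 0.514. Over the 6 other lungs the log2 fold change was 0.0062 ± 0.23 (SE), and the IA LPS mean was 2465 ± 535 CPM (SD, n = 3). The interval over 7 lungs holds both a modest fall and a rise of nearly 2-fold, so an absence of change was not shown.

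Fbn2, the microfibril scaffold protein, was at 351, 345 and 259 CPM in control replicates 1 to 3 and at 241, 210.1, 235 and 136 CPM in IA LPS replicates 1 to 4. Every IA LPS lung lay below every control lung, as it did for 9.18% of all genes tested. IA LPS replicate 4 was the lowest by a wide margin, at 42.7% of the control mean, and control replicate 3 lay closer to IA LPS replicate 1 than to the other controls. The mean was 318 ± 51.6 CPM (SD, n = 3) in controls and 206 ± 48.2 CPM (SD, n = 4) after IA LPS. The log2 fold change was −0.63 ± 0.20 (SE), with a 95% interval from −1.10 to −0.17 and an adjusted p of 0.201 by edgeR. The exact two-sided permutation test gave p = 0.0571, which is the smallest value that 3 lungs against 4 can give. DESeq2 over the same lungs gave a log2 fold change of −0.64 with an adjusted p of 0.0572, a call that edgeR did not make. With IA LPS replicate 4 left out the log2 fold change was −0.48 ± 0.12 (SE) and the adjusted p by edgeR was 0.0603, but the fold change was then under 1.5.

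Myh11 was at 389, 407 and 278 CPM in control replicates 1 to 3 and at 277.5, 205, 205 and 286 CPM in IA LPS replicates 1 to 4. The groups overlapped, since IA LPS replicate 4 lay just above control replicate 3. Control replicates 1 and 2 were the highest lungs, and IA LPS replicates 2 and 3 the lowest. The mean was 358 ± 70.0 CPM (SD, n = 3) in controls and 243 ± 44.5 CPM (SD, n = 4) after IA LPS. The log2 fold change was −0.56 ± 0.18 (SE), with a 95% interval from −0.97 to −0.15 and an adjusted p of 0.200 by edgeR, and the exact two-sided permutation test gave p = 0.114. Without IA LPS replicate 4 Myh11 was called as suppressed by edgeR, with a log2 fold change of −0.65 ± 0.17 (SE) and an adjusted p of 0.0642. In those 6 lungs the exact two-sided permutation p was 0.10, the smallest that 3 lungs against 3 allow. That call was lost on leaving out a further lung, at edgeR adjusted p of 0.210 and 0.159 without control replicates 1 and 2 and 0.182 and 0.181 without IA LPS replicates 2 and 3, and was kept without control replicate 3 or IA LPS replicate 1. With all 7 lungs Myh11 was called neither by edgeR nor by DESeq2 or limma-voom with equal weights, but was called by limma-voom with quality weights (−0.68, adjusted p = 0.0335), a fit added after the data were seen that called 2.94% of all genes as induced and 1.60% as suppressed.

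Col14a1 was at 419, 348 and 359.8 CPM in control replicates 1 to 3 and at 316, 292, 319.9 and 265 CPM in IA LPS replicates 1 to 4. Every IA LPS lung lay below every control lung, as it did for 9.18% of all genes tested, and the lungs within each group were close to one another. The mean was 376 ± 38.0 CPM (SD, n = 3) in controls and 298 ± 25.3 CPM (SD, n = 4) after IA LPS. The log2 fold change was −0.33 ± 0.11 (SE), a level 20.6% lower, with a 95% interval from −0.58 to −0.085 and an adjusted p of 0.207 by edgeR. The exact two-sided permutation test gave p = 0.0571. In the 6 lungs other than IA LPS replicate 4 the log2 fold change was −0.28 ± 0.086 (SE) and the adjusted p by edgeR was 0.103. The difference was under 1.5-fold in both fits, so that it could not be called whatever its p-value.

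**Figure D1:**
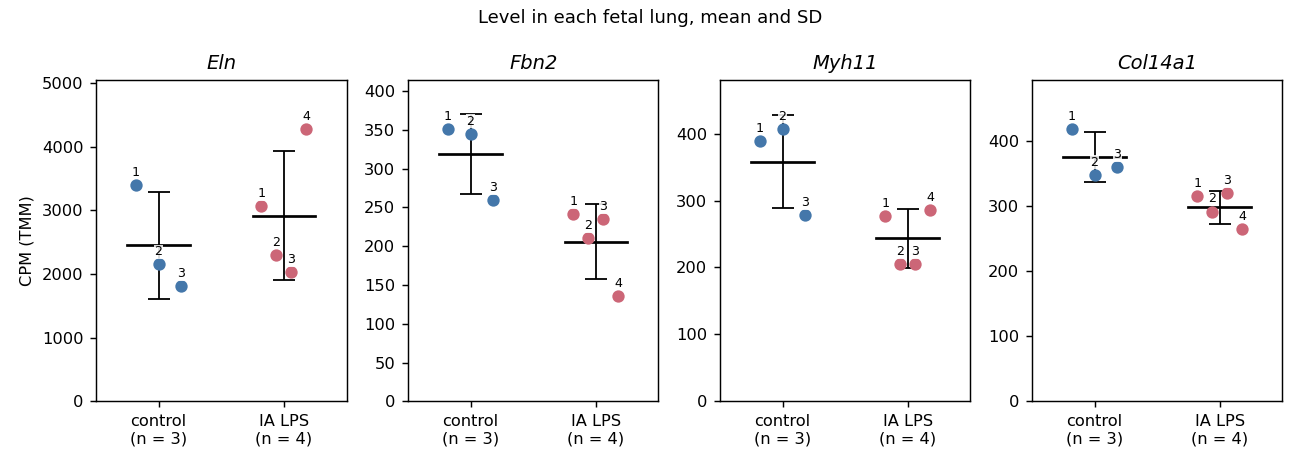
Levels of Eln, Fbn2, Myh11 and Col14a1 in CPM (vertical axes, from 0) in 3 control and 4 IA LPS fetal lungs, with each point 1 lung and its replicate number above it, horizontal bars the group mean and whiskers the SD. Fbn2 and Col14a1 are lower in every IA LPS lung than in every control, as are 9.18% of all genes tested. Myh11 overlaps because IA LPS replicate 4, at 286 CPM, lies above control replicate 3, at 278 CPM, and Eln is highest in IA LPS replicate 4 at 4283 CPM.

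The 4 genes differed in how much lungs of the same group varied. Within groups, the SD of log2 CPM was 0.48 for Eln, 0.34 for Fbn2, 0.28 for Myh11 and 0.13 for Col14a1. Among the 2082 genes that averaged 100 CPM or more, these values stood at percentiles 96.6, 90.4, 84.2 and 38.0. Eln was thus among the most variable abundant genes of these lungs. Part of this spread came from IA LPS replicate 4. Without it the SD of the IA LPS group was 535 CPM for Eln, against 1009 CPM with it. For Fbn2 the SD was 16.4 against 48.2 CPM, for Myh11 41.9 against 44.5 CPM, and for Col14a1 15.2 against 25.3 CPM. The level of Eln ranged 1.88-fold among the 3 controls alone, and 2.37-fold over all 7 lungs. For Col14a1 the corresponding ranges were 1.20-fold and 1.58-fold, so that a smaller difference between groups had about the same unadjusted p as the larger ones of Fbn2 and Myh11, at 0.0143 against 0.0135 and 0.0133 by edgeR.

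Covariation across lungs was measured for the 6 pairs of the 4 genes as Pearson's r of log2 CPM, with exact permutation over the 5040 pairings and Benjamini-Hochberg adjustment over the 6 pairs and a threshold of 0.05 on the adjusted p. Over the 7 lungs Fbn2 and Col14a1 varied together most closely of the 6 pairs, with r = 0.90 (exact permutation p = 0.00873, adjusted p = 0.0524, n = 7), which narrowly missed the threshold. Spearman's rho was 0.93 (exact permutation p = 0.00675, adjusted p = 0.0405), which passed it. Leaving out IA LPS replicate 4 and control replicate 1, the lungs farthest from the median of Fbn2, gave r = 0.75 over 5 lungs. Leaving out only IA LPS replicate 4, r was 0.85 (exact permutation p = 0.0250, adjusted p = 0.0750, n = 6), which also missed the threshold. In the same lungs rho was 0.89 (exact permutation p = 0.0333, adjusted p = 0.10, n = 6), so the pass by rho was lost. Part of such an r is the difference between the groups, in which both genes were lower after IA LPS. After each group's mean was subtracted, r was 0.75 (exact permutation within groups p = 0.0764, adjusted p = 0.292, n = 7), again missing the threshold.

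Fbn2 and Myh11 had r = 0.56 over the 7 lungs (exact permutation p = 0.185, adjusted p = 0.371, n = 7) and rho = 0.61 (exact permutation p = 0.167, adjusted p = 0.50). The relation turned on IA LPS replicate 4, in which Fbn2 was at its lowest and Myh11 at the highest level of its group. Without that lung r was 0.95 (exact permutation p = 0.00694, adjusted p = 0.0417, n = 6) and rho 0.94 (exact permutation p = 0.0167, adjusted p = 0.10). Both genes were lower after IA LPS in those 6 lungs, so part of that r is the difference between the groups. Within the groups of those 6 lungs r was not computed. Their r over the 7 lungs was −0.014 after the group means were subtracted (exact permutation p = 0.986). Myh11 and Col14a1 had r = 0.59 over 7 lungs (exact permutation p = 0.155, n = 7) and −0.10 within groups. Without IA LPS replicate 4 their r was 0.77 (exact permutation p = 0.0847, adjusted p = 0.169, n = 6).

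**Figure D2:**
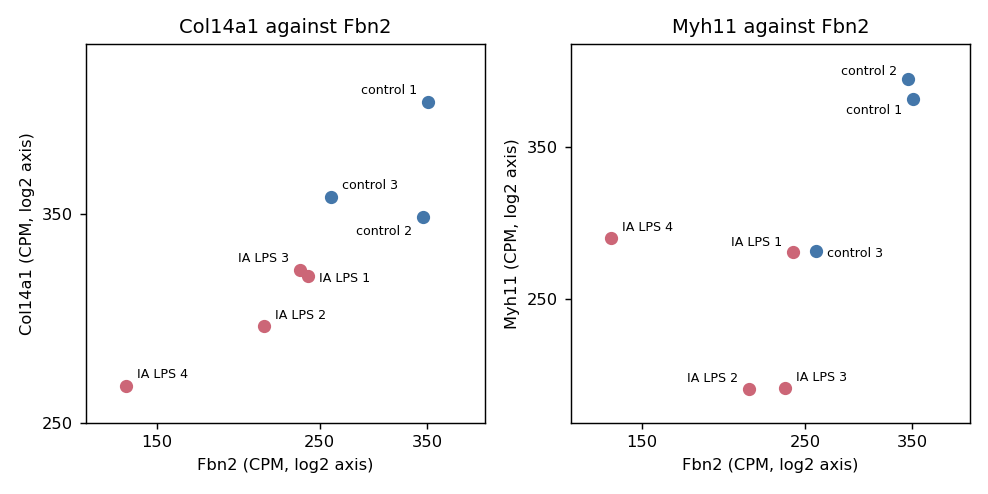
Col14a1 against Fbn2 (left) and Myh11 against Fbn2 (right) in CPM on log2 axes, with each point 1 fetal lung, blue for the 3 control and red for the 4 IA LPS lungs. Over the 7 lungs r is 0.90 on the left and 0.56 on the right, where IA LPS replicate 4 lies away from the line of the other 6 lungs.

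Eln did not follow the other 3 genes over the 7 lungs. Its r was −0.42 with Fbn2, 0.28 with Myh11 and −0.25 with Col14a1, with exact permutation p from 0.358 to 0.589 (n = 7), and rho was −0.21, 0.25 and −0.39. Without IA LPS replicate 4 the values with Fbn2 and Col14a1 turned to 0.32 and 0.34 (exact permutation p = 0.532 and 0.510, n = 6). The value with Myh11 was then 0.38 (exact permutation p = 0.443, n = 6). After the group means were subtracted, Eln and Myh11 had r = 0.80 (exact permutation p = 0.0972, adjusted p = 0.292, n = 7), so that the lungs with more Eln in a group tended to have more Myh11, without passing the threshold.

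Ratios of 2 genes within a lung do not depend on the scaling between libraries, and were added after the data had been seen. The ratio of Eln to Myh11 was 8.73, 5.29 and 6.51 in control replicates 1 to 3 and 11.0, 11.2, 9.897 and 14.97 in IA LPS replicates 1 to 4. All 4 IA LPS lungs lay above all 3 controls. On the log2 scale the ratio was 0.80 higher after IA LPS (exact permutation p = 0.0571, adjusted p = 0.343 over 6 ratios), and 0.68 higher without IA LPS replicate 4 (exact permutation p = 0.10). The ratio of Eln to Fbn2 was 9.68, 6.24 and 6.98 in controls and 12.7, 11.0, 8.65 and 31.5 after IA LPS, where IA LPS replicate 4 stood far above the other lungs and the groups overlapped. Its log2 difference was 0.896 (exact permutation p = 0.114), and 0.50 without IA LPS replicate 4. The ratio of Fbn2 to Myh11 differed by −0.098 on the log2 scale (exact permutation p = 1) and by 0.17 without IA LPS replicate 4 (exact permutation p = 0.30). It was 0.476 in that lung against 0.869 to 1.145 in the other IA LPS lungs, so the mean over 7 lungs covers differences of both signs.

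For each of the 4 genes, the genes with the most similar pattern over the 7 lungs were sought among 369 other named genes that averaged 10 CPM or more. Nearest to Eln were Ndc80 (r = 0.92), Cdca3 (r = 0.88) and Pimreg (r = 0.88). Ndc80 encodes a kinetochore protein, and its level was highest in IA LPS replicate 4 and control replicate 1, at 80.3 and 79.9 CPM, against 57.5 to 71.7 CPM in the other lungs. Nearest to Fbn2 were Arnt2 (r = 0.97), Dtl (r = 0.97) and Cyp1b1 (r = 0.96). Arnt2, a partner of basic helix-loop-helix transcription factors, was at 66.6, 65.2 and 59.4 CPM in controls and 47.6, 47.2, 48.1 and 28.6 CPM after IA LPS, with its lowest level in IA LPS replicate 4 as for Fbn2. Nearest to Myh11 were Cnmd (r = 0.98), Ncaph (r = 0.96) and Apcdd1 (r = 0.87). Cnmd, the cartilage protein chondromodulin, was at 17.5, 19.5 and 15.01 CPM in controls and 13.9, 12.4, 11.9 and 14.4 CPM after IA LPS. Nearest to Col14a1 were Scara3 (r = 0.94), Tmem98 (r = 0.94) and Col23a1 (r = 0.94). Among all 10071 genes that averaged 10 CPM or more, named or not, 770 had an r of at least 0.9 with Fbn2, 191 with Col14a1, 35 with Eln and 32 with Myh11. A high r with Fbn2 was thus common. The 12 genes named here were not called by edgeR over the 7 lungs.

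Gene names were needed to place other genes beside these 4, and most names came from the study's lists of genes that were higher or lower in placenta after the same exposure, taken by size of difference and not by a test. Named list members are therefore a selected set, and their counts are not independent evidence of a direction in lung. Of 268 genes in 20 lists, 68 had a name in the table and 65 were tested. Over the 7 lungs edgeR called 3 of the 65 as induced and 1 as suppressed, against 1.40% and 0.508% of all genes tested. Both counts were 0 without control replicate 1, 2 or 3 or IA LPS replicate 2, were 1 and 1 without IA LPS replicate 1 and 2 and 2 without IA LPS replicate 3, and were 6 and 4 without IA LPS replicate 4. DESeq2 called 7 and 4 of the 65, against 2.69% and 1.31% of all genes, and limma-voom 3 and 1, against 1.19% and 0.533%. The median log2 fold change of all genes was 0.0097.

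Of 26 elastic fibre and microfibril genes 5 had a name and were tested, all listed as higher in placenta. By edgeR 0 were called, with 1 higher and 1 lower at an unadjusted p under 0.05, where 9.11% and 6.72% of all genes were. DESeq2 called Fbn2 as suppressed, as it did 1.31% of all genes, and limma-voom called 0, and the median log2 fold change was −0.16. Efemp1, which encodes fibulin 3, was at 15.1, 13.6 and 15.9 CPM in controls and 21.1, 21.5, 19.5 and 15.1 CPM after IA LPS. IA LPS replicate 4 lay within the controls, and the other 3 IA LPS lungs above them. Its log2 fold change was 0.38 ± 0.15 (SE, edgeR adjusted p = 0.276), and 0.48 without IA LPS replicate 4 (adjusted p = 0.0388), under 1.5-fold in both. Fbln2, which encodes fibulin 2, had a log2 fold change of −0.43 ± 0.30 (SE, edgeR adjusted p = 0.521), with control lungs from 34.7 to 84.2 CPM and IA LPS lungs from 30.3 to 58.1 CPM. Leaving out 1 of the 7 lungs at a time gave from −0.69 to −0.055. Emilin2, a protein of the elastin surface, overlapped between groups at between 4.36 and 10.0 CPM.

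Of 17 proteases that degrade elastin and their inhibitors 3 had a name and 2 were tested. By edgeR 0 were called, with both higher at an unadjusted p under 0.05 as were 9.11% of all genes, and DESeq2 and limma-voom called 0. Mmp9, the gelatinase of neutrophils and macrophages, was at 0.412, 0.296 and 0.316 CPM in controls and 0.594, 0.945, 0.714 and 0.891 CPM after IA LPS. All IA LPS lungs lay above the controls, as they did for 10.6% of all genes tested, on 8 to 26 counts per library. Its log2 fold change was 1.20 ± 0.34 (SE, edgeR adjusted p = 0.155), and limma-voom with quality weights, added after the data were seen, called it at 1.08 (adjusted p = 0.0954). Slpi, a secreted inhibitor of neutrophil elastase, lay between 0.107 and 0.928 CPM, and Slpi and the untested Mmp12 were at or under the floor in some libraries. The 10 enzymes that crosslink elastin and collagen, and the 17 genes of the TGF-beta pathway, had no name in the sources and were not analysed here.

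Of 22 genes of the smooth muscle contractile apparatus 4 had a name and were tested. By edgeR 0 were called over the 7 lungs, with Myh11 lower at an unadjusted p under 0.05 as were 6.72% of all genes, and DESeq2 and limma-voom called 0. The median log2 fold change of the 4 genes was −0.19 over the 7 lungs, and −0.32 without IA LPS replicate 4. Without Casq2, left out after the data were seen, the median over the 7 lungs was −0.40, which is the value of Actg2. Actg2, the enteric smooth muscle actin, was at 200, 172 and 132 CPM in controls and 172, 117, 101 and 118 CPM after IA LPS, with a log2 fold change of −0.40 ± 0.20 (SE, edgeR adjusted p = 0.378). Leaving out 1 of the 7 lungs at a time gave from −0.58 to −0.26 for Actg2. Control replicate 3 lay among the IA LPS lungs for Actg2, as it did for Myh11. Cnn1, which encodes calponin 1, was at 114, 101 and 91.6 CPM in controls and 101, 90.8, 72.6 and 149 CPM after IA LPS. Its log2 fold change was 0.019 ± 0.22 (SE) over the 7 lungs and −0.21 ± 0.13 (SE) without IA LPS replicate 4, its highest lung, with adjusted p of 0.975 and 0.368 by edgeR. Casq2, a calcium-binding protein of muscle stores, ranged from 1.29 to 14.3 CPM. All 7 lungs had the same rank by Casq2 as by the summed cardiac markers given below, and which cells its RNA came from was not tested. Of 22 regulators of smooth muscle only the muscarinic receptor gene Chrm3 had a name, with a log2 fold change of −0.30 ± 0.16 (SE, edgeR adjusted p = 0.413). With 1 of the 7 lungs left out, that of Chrm3 lay between −0.39 and −0.18. The summed level of the 4 named genes of the list was 717, 681 and 507 CPM in controls and 562, 416, 381 and 565 CPM after IA LPS, with Myh11 the most abundant.

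Among 15 myofibroblast markers 3 had a name and were tested, and edgeR, DESeq2 and limma-voom called 0 of them, with 0 at an unadjusted p under 0.05 by edgeR. Of all genes tested edgeR called 1.90% in either direction, and 15.8% had such a p. DESeq2 called 2.69% as induced and 1.31% as suppressed, and limma-voom 1.19% and 0.533%. Gli2, a transcription factor of the hedgehog pathway, was at 80.8, 87.1 and 68.8 CPM in controls and 58.9, 61.2, 63.2 and 18.9 CPM after IA LPS. All IA LPS lungs lay below the controls, as they did for 9.18% of all genes tested. IA LPS replicate 4 lay far below the rest, as for Fbn2. Its log2 fold change was −0.64 ± 0.35 (SE, edgeR adjusted p = 0.414), and −0.37 ± 0.088 (SE, edgeR adjusted p = 0.0535) without IA LPS replicate 4. Stc1 and Aspn had log2 fold changes of 0.058 and −0.052, which both changed sign without that lung.

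Among 21 markers of matrix fibroblasts and lipofibroblasts 3 had a name and were tested, and 1, Dpt, rose by edgeR, where 1.40% of all genes were induced. Dpt encodes dermatopontin, a small matrix protein that binds decorin and collagen fibrils. It was at 83.9, 63.0 and 78.7 CPM in controls and 153, 131, 134 and 161 CPM after IA LPS. Every IA LPS lung was far above every control, where 10.6% of all genes tested had every IA LPS lung above every control. The log2 fold change was 0.94 ± 0.13 (SE, edgeR adjusted p = 0.0389), and 0.89 ± 0.11 (SE, edgeR adjusted p = 0.00984) without IA LPS replicate 4. With other lungs left out the call was lost, at adjusted p = 0.181, 0.165 and 0.114 without control replicates 1, 2 and 3 and 0.116 without IA LPS replicate 2, while the log2 fold change stayed between 0.83 and 1.03. Thus Dpt and Col14a1, both of matrix fibroblasts, lay on opposite sides of 0. Col13a1, the other named marker of that list, had a log2 fold change of −0.045 ± 0.11 (SE, edgeR adjusted p = 0.861).

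Of 11 fibrillar collagen genes 3 had a name and were tested, all 3 listed as lower in placenta. Both edgeR and limma-voom over the 7 lungs called 1 of them as suppressed, Col11a2, and DESeq2 called 2, Col11a2 and Col11a1 (−0.83, adjusted p = 0.0200), where edgeR suppressed 0.508% of all genes, limma-voom 0.533% and DESeq2 1.31%. Col11a2, a chain of the cartilage collagen XI, was at 64.4, 60.0 and 61.2 CPM in controls and 21.7, 23.9, 27.4 and 37.1 CPM after IA LPS, with a log2 fold change of −1.17 ± 0.17 (SE, edgeR adjusted p = 0.0389). The groups were far apart, where 9.18% of all genes tested had every IA LPS lung below every control. IA LPS replicate 4 was the lung nearest to the controls. The call was lost at adjusted p = 0.204, 0.165 and 0.120 without control replicates 1, 2 and 3 and 0.123 without IA LPS replicate 2. Without IA LPS replicate 4 the log2 fold change of Col11a2 was −1.35, and Col11a1 was also called by edgeR, at −0.76 ± 0.23 (SE, edgeR adjusted p = 0.0993). On leaving out a further lung that call was kept only without control replicate 2, and was lost at adjusted p of 0.280 and 0.192 without control replicates 1 and 3 and 0.119, 0.238 and 0.207 without IA LPS replicates 1, 2 and 3. Col2a1 was at 296, 299 and 271 CPM in controls and 190.2, 212, 208 and 171 CPM after IA LPS, with an adjusted p of 0.0522 by edgeR and a fold change under 1.5.

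Col14a1 belongs to the fibril-associated collagens, of which 5 of 10 had a name and were tested. Over the 7 lungs edgeR called 0 of the 5, with 2 lower at an unadjusted p under 0.05 where 6.72% of all genes were. Limma-voom called 0 and DESeq2 called 1, Col9a2, where it suppressed 1.31% of all genes. The median log2 fold change was −0.39. Col9a2, a chain of the cartilage collagen IX, had a log2 fold change of −0.86 ± 0.21 (SE, edgeR adjusted p = 0.114) and was called without IA LPS replicate 4, at −1.05 ± 0.15 (SE, edgeR adjusted p = 0.0124). Col12a1, which encodes the collagen most closely related to collagen XIV, was at 128, 95.5 and 91.2 CPM in controls and 100.1, 71.3, 78.5 and 50.3 CPM after IA LPS. Unlike Col14a1 it overlapped between groups, with a log2 fold change of −0.48 ± 0.22 (SE, edgeR adjusted p = 0.337). With 1 of the 7 lungs left out, that of Col12a1 lay between −0.65 and −0.31. Col22a1 lay between 0.705 and 1.65 CPM. Among 17 partners of collagen fibrils 3 had a name and 2 were tested, of which edgeR, DESeq2 and limma-voom called 0 and 1, Fmod, was lower at an unadjusted p under 0.05, as were 6.72% of all genes. Fmod, which encodes fibromodulin, had a log2 fold change of −0.57 ± 0.13 (SE, edgeR adjusted p = 0.0970) and a fold change under 1.5.

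**Figure D3:**
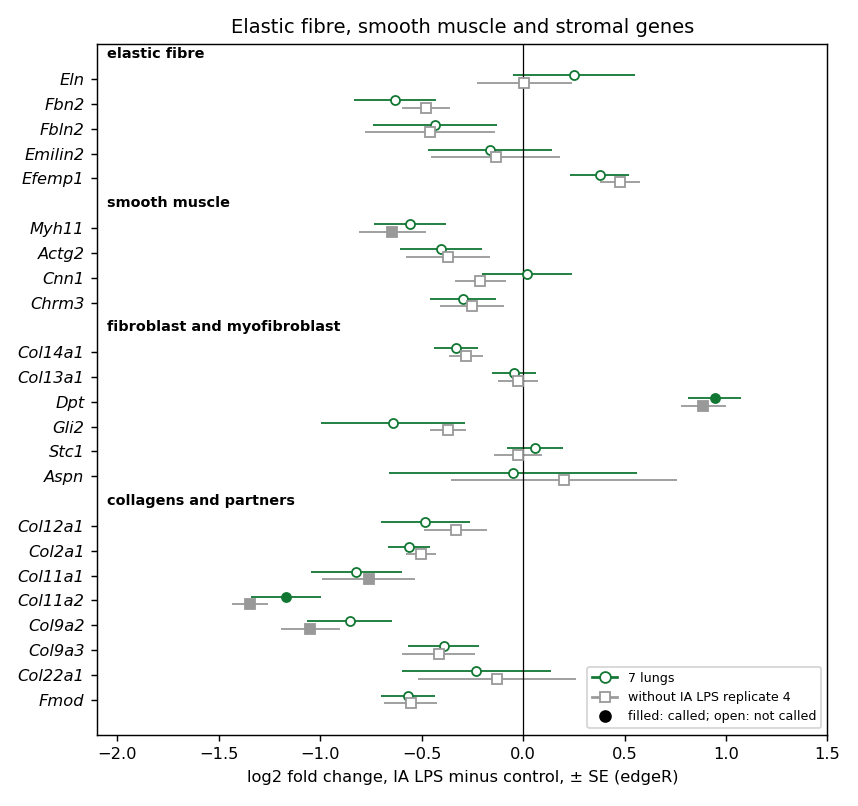
Log2 fold change, IA LPS minus control, with its SE (horizontal axis) for 23 named elastic fibre, smooth muscle, fibroblast and collagen genes, by edgeR over 7 lungs (green circles) and without IA LPS replicate 4 (grey squares), filled where called. Over the 7 lungs Dpt at 0.94 and Col11a2 at −1.17 are called, and without IA LPS replicate 4 also Myh11 at −0.65, Col11a1 at −0.76 and Col9a2 at −1.05.

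Markers of other cell types differed between these lungs, and their part in the results above was not tested. Of 13 cardiac muscle markers 8 had a name and were tested, and edgeR, DESeq2 and limma-voom called 0, with 0 at an unadjusted p under 0.05 by edgeR. Of all genes tested edgeR called 1.90% in either direction, and 15.8% had such a p. Their summed level was 522, 50.5 and 174 CPM in controls and 254, 154, 85.6 and 389.7 CPM after IA LPS, a range of 10.3-fold. The most abundant was Actc1, the cardiac actin, and Myl2 was at or under the floor in some libraries. The ends of the list were Nppa, a cardiac hormone, at −1.63 ± 1.05 (SE, edgeR adjusted p = 0.482), and Myl2, a cardiac myosin light chain, at 1.47 ± 1.27 (SE, edgeR adjusted p = 0.602). Nppa was at 128 CPM in control replicate 1 against 1.59 to 21.4 CPM in the other lungs, and changed sign without that lung, to 0.94. Myl2 fell to 0.35 without IA LPS replicate 4, its highest lung at 3.45 CPM. The 3 lungs with the most cardiac RNA, control replicate 1 and IA LPS replicates 4 and 1, were also the 3 with the most Eln. Of 11 skeletal muscle markers 8 had a name and 7 were tested, again with 0 called by the 3 tools and 0 at an unadjusted p under 0.05. Their sum was 40.3, 11.6 and 31.5 CPM in controls and 117, 17.5, 13.5 and 23.1 CPM after IA LPS, led by Myh3, with Myog and Myod1 at or under the floor in some libraries. The ends of that list were Ckm, a muscle creatine kinase, at −0.20 ± 0.61 (SE, edgeR adjusted p = 0.899), and Myog, a myogenic transcription factor, at 1.81 ± 1.37 (SE, edgeR adjusted p = 0.551). Myog reached 8.52 CPM in IA LPS replicate 1 but no more than 1.16 CPM elsewhere, and its log2 fold change was −0.99 without that lung, while Ckm turned to 0.65 without control replicate 1 and 0.076 without IA LPS replicate 3.

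Of 10 chondrocyte markers 5 had a name and were tested, with a median log2 fold change of −0.40. Of these 1, Col11a2, was suppressed by edgeR, against 0.508% of all genes, and 3 were lower at an unadjusted p under 0.05, against 6.72%, while the other 2 overlapped between groups. The call of Col11a2 was lost without any 1 of control replicates 1, 2 and 3 and IA LPS replicate 2, as given above. Their summed level was 389, 385 and 356 CPM in controls and 229.9, 257, 256 and 229.9 CPM after IA LPS, so that the groups were well apart, and most of it was Col2a1. None of the 5 was at or under the floor. Whether these transcripts bear on the levels of Fbn2, Myh11 and Col14a1 was not tested.

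The 4 lung epithelial markers summed to 999.8, 1295 and 1234 CPM in controls and 1490.4, 1715, 1582 and 2035 CPM after IA LPS, with every IA LPS lung above the controls and a median log2 fold change of 0.58. In all 7 lungs edgeR and limma-voom called 1 of the 4 as induced, Cldn18, against 1.40% and 1.19% of all genes, and DESeq2 called 2, with Sftpc, against 2.69%. Cldn18, a tight junction protein of alveolar cells, rose, with a log2 fold change of 0.66 ± 0.15 (SE, edgeR adjusted p = 0.0925). Its call was lost without any lung but IA LPS replicate 4, at adjusted p of 0.361, 0.165 and 0.251 without control replicates 1, 2 and 3 and 0.175, 0.201 and 0.145 without IA LPS replicates 1, 2 and 3, and narrowly with no filter on low counts, at 0.101. Whether epithelial transcripts bear on the levels of the stromal genes was not tested.

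Of 12 leukocyte markers 7 had a name and were tested, with a median log2 fold change of 0.48 and 1 called by edgeR as induced, C1qa, where 1.40% of all genes were. By edgeR 3 of the 7 were higher at an unadjusted p under 0.05, where 9.11% of all genes were. The log2 fold changes of the 7 ran from −0.35 to 1.81. DESeq2 called 3 of the 7, against 2.69% of all genes, and limma-voom 1, which was not C1qa, against 1.19%. Their sum was 179, 201 and 265 CPM in controls and 369, 319, 295 and 225 CPM after IA LPS, most of it Lyz2. The complement gene C1qa had a log2 fold change of 0.83 ± 0.18 (SE, edgeR adjusted p = 0.0862), and the call was lost at adjusted p of 0.358, 0.279 and 0.181 without control replicates 1, 2 and 3 and 0.158 and 0.210 without IA LPS replicates 1 and 2, and at 0.104 with limma-voom over the 7 lungs. In the 6 other lungs, IA LPS replicate 4 left out, edgeR called 4 of the 7 as induced, where 2.17% of all genes were. Of 8 mesothelial markers 3 had a name and were tested, with 0 called by edgeR and limma-voom, 2 higher at an unadjusted p under 0.05 where 9.11% of all genes were, and 1 called by DESeq2 as induced where 2.69% were. They summed to 22.6, 18.9 and 29.3 CPM in controls and 39.2, 32.1, 24.5 and 48.2 CPM after IA LPS, led by Msln. The uroplakin genes Upk3b and Upk1b had the largest and smallest log2 fold change, 0.79 ± 0.26 (SE, edgeR adjusted p = 0.214) and 0.46 ± 0.18 (SE, edgeR adjusted p = 0.282). Of 10 erythroid markers 7 had a name and were tested, with 0 called by the 3 tools and 0 at an unadjusted p under 0.05. Of all genes tested edgeR called 1.90% in either direction, and 15.8% had such a p. The erythroid markers went as follows. Their sum was 17026, 14027 and 17230.1 CPM in controls and 13305, 28905, 19799 and 31331 CPM after IA LPS, nearly all of it Hba-a1. The smallest log2 fold change was that of Alas2, an enzyme of heme synthesis, at 0.13 ± 0.24 (SE, edgeR adjusted p = 0.823), which was −0.0037 without IA LPS replicate 2. Markers of pericytes, 9 in all, and of endothelium, 10 in all, had no name in the sources and were not analysed here.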

How the data were processed

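Estimated counts of 7 fetal lungs were deposited by the authors, who ran kallisto on paired-end reads with rat genome build rno6.0 and tximport to reach genes, without normalization. Their software versions are not given in the sources used here. Where genes are nearly identical, kallisto apportions their shared reads. Counts were rounded to whole numbers, filtered with filterByExpr, scaled with TMM and tested with edgeR 4.0.16's quasi-likelihood test in R 4.3.3, with group as the only term and Benjamini-Hochberg adjustment over all genes tested. The thresholds for a call were those of the study. Log2 CPM used a prior count of 2. The code was tested on simulated data with known changes. Of 160 genes changed 2-fold 128 were recovered, with 16 false calls, and 3 genes were called where none was changed. Smaller changes were not simulated, nor was a library that stood apart. Groups and replicate numbers are those of the labels.

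The 4 genes and the 20 lists were chosen with earlier results of these data known. Names came from the study's tables, which paired 2070 identifiers with names, 2050 of them in the table and 1312 tested. Named genes were the 4 members; from each list every called gene, up to 4 by size of change, and otherwise those with the largest and smallest log2 fold change; the most abundant gene of each list of another cell type; and for each member the 3 most similar genes. Outside this rule, Fbln2, Emilin2, Actg2, Cnn1, Col11a1, Col12a1, Col13a1, Nkx2-1, Mmp12 and Myod1 were chosen after their values were seen. Alternatives were the 6 libraries of the study, leaving out each replicate, size factors of DESeq2, a block for the replicate number, the DESeq2 1.42.0 test, limma-voom (limma 3.58.1), no filter, a filter of 1 CPM in 3 libraries, an adjusted p under 0.05 with no fold threshold and, for correlations, a prior count of 0.5 and subtracted group means. Quality weights, DESeq2 over 6 libraries, ratios within a lung and the median without Casq2 were added after the data were seen.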

Additional observations from a re-analysis of the deposited data

Results flagged for a closer look

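Of 55 genes named in the text, 6 had a single IA LPS lung far from the other 3, judged by the gap between that lung and its nearest neighbour as a share of the range of the group. Chance alone flags about 1 in 20 groups of 4, so some of these may be chance. Arnt2 was named for its likeness to Fbn2, and Mmp12 and Myod1 were named after their values were seen. The number flagged can therefore not be set against that rate. For Gli2 the gap was 0.903 of the range, with IA LPS replicate 4 at 18.9 CPM and the other IA LPS lungs from 58.9 to 63.2 CPM. For Arnt2 the gap was 0.954 of the range, with IA LPS replicate 4 at 28.6 CPM and the others from 47.2 to 48.1 CPM. For Myh3, the embryonic skeletal myosin, it was 0.988 of the range, with IA LPS replicate 1 at 46.3 CPM and the others from 1.37 to 1.93 CPM. For Myog it was 0.918 of the range, with IA LPS replicate 1 at 8.52 CPM and the others from 0.0742 to 0.764 CPM. For Myod1, not tested, it was 0.912 of the range, with IA LPS replicate 1 at 1.75 CPM and the others from 0.111 to 0.255 CPM. For Mmp12, also not tested, it was 0.834 of the range, with IA LPS replicate 4 at 0.408 CPM and the others from 0.218 to 0.250 CPM, on 6 to 11 counts per IA LPS library. The groups of 3 controls were not examined in this way.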

How the results depend on the processing

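Over the alternatives, Fbn2, Myh11 and Col14a1 were lower after IA LPS in every fit, and Col14a1 was called in none. Adjusted p-values ranged from 5.9e-04 to 0.537 for Fbn2, from 0.0273 to 0.538 for Myh11, from 0.0124 to 0.567 for Col14a1 and from 0.432 to 0.9996 for Eln. The cause of the changes listed next was not tested, beyond the libraries, genes or thresholds that each alternative removes. The 220 induced and 80 suppressed genes became 339 and 176 in the 6 libraries of the study, 424 and 206 with DESeq2, 382 and 197 with DESeq2 in the 6 libraries, 463 and 252 with quality weights, and 89 and 39 at an adjusted p under 0.05 with no fold threshold. Leaving out 1 library at a time, from the 7 or from the 6, gave 1 to 384 induced and 0 to 177 suppressed genes. The 3 induced and 1 suppressed genes of the lists became 6 and 4 in the 6 libraries, 7 and 4 with DESeq2, 8 and 4 with DESeq2 in the 6 libraries, 10 and 4 with quality weights, 1 induced with no fold threshold, and 0 to 7 and 0 to 5 on leaving out 1 library. Fbn2 was called with DESeq2 (log2 fold change −0.64) and in the 6 libraries without control replicate 3, and with 1 library left out it ranged from −0.76 to −0.40. Myh11 was called in the 6 libraries (−0.65), with DESeq2 in the 6 libraries (−0.65) and with quality weights (−0.68), and with 1 library left out it ranged from −0.81 to −0.45. Eln was −0.017 with quality weights and from −0.18 to 0.56 with 1 library left out. The correlation of Eln turned to 0.32 with Fbn2 and 0.34 with Col14a1 in the 6 libraries, and ranged from −0.76 to 0.32 and from −0.82 to 0.34 with 1 library left out. That of Fbn2 and Myh11 was 0.95 in the 6 libraries, −0.014 with group means subtracted and from 0.40 to 0.95 with 1 library left out. Myh11 and Col14a1 had −0.10 with group means subtracted, and Fbn2 and Col14a1 passed an adjusted p of 0.05 with DESeq2's size factors (0.90, adjusted p = 0.0452).

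Single genes that changed sign were none of them called. Calls were gained by Upk3b with DESeq2 (0.78), DESeq2 in the 6 libraries (0.69), quality weights (0.77) and the 6 libraries without control replicate 3 (0.99), by Lyz2 in the 6 libraries (0.61), DESeq2 in the 6 libraries (0.61), quality weights (0.64) and the 6 libraries without control replicate 3 (0.80), and by Sftpc with DESeq2 (0.70), quality weights (0.61) and the 6 libraries without control replicate 3 (0.67) or IA LPS replicate 1 (0.65). Fmod gained a call in the 6 libraries without control replicate 3 (−0.66) or IA LPS replicate 2 (−0.69), and Mmp9 with quality weights (1.08). Col2a1 gained one when IA LPS replicate 3 alone was left out of the 7 libraries (−0.59). Col11a1 and Col9a2 gained one in the 6 libraries, with either DESeq2 fit, the block and quality weights, and Col9a2 also in the 6 libraries without any 1 of them. In the 6 libraries Cldn18 lost its call without any 1 library but control replicate 2, and C1qa without control replicate 1 or IA LPS replicate 2. In the 6 libraries, with DESeq2 in the 6 libraries and with quality weights, the log2 fold change was −0.21, −0.22 and −0.23 for Cnn1, −0.27, −0.29 and −0.014 for Casq2, −0.026, −0.031 and −0.027 for Stc1, 0.20, 0.20 and 0.53 for Aspn, and −0.23, −0.24 and −0.054 for Actc1. Limma-voom gave −0.026 for Cnn1 and 0.14 for Aspn, and quality weights gave −0.0017 for Pimreg. Limma-voom also gave 0.029 for Nppa and −0.052 for Myog. With 1 library left out the ranges were −0.43 to 0.13 for Emilin2, −0.32 to 0.16 for Cnn1, −1.16 to 1.02 for Casq2, −0.12 to 0.15 for Stc1, −0.49 to 0.99 for Aspn, −0.092 to 0.068 for Col13a1, −0.44 to 0.33 for Col22a1, −0.87 to 1.13 for Actc1, −1.66 to 2.12 for Myh3, −0.081 to 0.24 for Ndc80, −0.091 to 0.13 for Pimreg, −2.39 to 0.94 for Nppa, −0.89 to 3.56 for Myl2, −1.13 to 0.65 for Ckm, −0.99 to 2.86 for Myog and −0.26 to 0.30 for Alas2. Of 1066 values of single genes under an alternative, 906 kept their direction and side of the threshold.

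The labels do not tell whether the numbers 1 to 3 pair the samples. The deviations of same-numbered lungs from their group means correlated at 0.157, −0.0815 and −0.208, and not every lung correlated best with its own number. Deviations from a mean of 3 lungs are too few to settle whether the samples were paired. With the replicate number as a block over 6 libraries, 150 genes were suppressed, 5 genes of the lists were induced and 4 suppressed, and Myh11 was called (−0.64, adjusted p = 0.0565). In that fit the log2 fold change was −0.22 for Cnn1, −0.092 for Casq2, −0.019 for Stc1, 0.47 for Aspn, −0.019 for Actc1 and −0.022 for Alas2. Depth did not limit the 4 genes, each with at least 3665 counts per library. It limits Mmp9, Slpi and Col22a1, near 1 CPM or below.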
